A study of Mus musculus with 11 samples.

Results

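The triggering receptor Trem2, its signalling adaptor Tyrobp and 8 genes of lipid transport, engulfment and microglial growth (Apoe, Lpl, Axl, Spp1, Gpnmb, Abca1, Cd9 and Csf1) were examined in the brain of mice that lack Dicer in forebrain neurons. These 10 genes were the rows of the count table whose Ensembl identifier maps to those symbols, out of 39017 gene rows, and all 10 passed the filter on low counts in both tissues. RNA-seq of polyadenylated RNA was done on neocortex and on the hippocampal CA1 region. The knockout (KO) animals carried Camk2a-Cre, which acts in excitatory neurons of the postnatal forebrain, and 2 floxed copies of Dicer (Camk2a-Cre;Dicer flox/flox), so Dicer was not targeted in microglia. The labels call the other animals control without giving their genotype. All animals were 13 to 14 weeks old. For the neocortex there were 3 male controls, named D5129, D5134 and D5135, and 3 male KO animals, named D5130, D5132 and D5133. For the CA1 there were 3 controls, of which D5134 and D5135 were male and D5138 female, and 2 male KO animals, D5130 and D5133. Values by library follow these orders. Each library came from its own animal within a tissue, and 4 animals gave both tissues.

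Trem2 is a receptor for lipids, lipoproteins and the lipids exposed on dying cells. It has no signalling tail of its own and works through Tyrobp (also called DAP12), whose phosphorylated tyrosines recruit the kinase Syk. In the brain both are made by microglia and related macrophages. Microglia that respond to damage through Trem2 take up debris and lipoprotein, and they raise a set of genes that includes Apoe, Lpl, Axl, Spp1, Gpnmb, Cd9 and Csf1. Several of the 10 genes are also made by other brain cells, Apoe and Abca1 by astrocytes and Lpl by neurons among them. In whole tissue, more cells of a type and more RNA per cell cannot be told apart.

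The depth ran from 43144097 to 58329441 gene counts in a neocortex library and from 24806581 to 35684618 in a CA1 library. Levels are CPM, that is counts divided by the library total and brought to a common scale, with TMM scaling within a tissue. The tissues were scaled apart and made with different kits, so levels are not compared between them. Summed markers of CA1 neurons were at 381 to 441 CPM in CA1 controls and 142 to 169 CPM in neocortex controls, and markers of the neocortex at 110.0 to 133 and 367 to 395 CPM. Markers of the neighbouring dentate gyrus were also present in the CA1 controls, at 136 to 172 CPM against 18.4 to 22.2 CPM in neocortex controls. Dicer1 itself lay at 59.3 to 66.5 CPM in the neocortex controls and 59.0 to 63.3 CPM in the KO libraries, and at 68.7 to 75.2 and 71.6 to 73.3 CPM in the CA1. The whole-gene count says nothing of the floxed exons, so it cannot check the genotype labels. The neocortex libraries fell into 2 sets by the relative amounts of their ERCC spike-in RNAs. Set 1 held control D5129 with KO D5130 and D5132, and set 2 held KO D5133 with controls D5134 and D5135.

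Dicer makes mature miRNAs, so the seed matches of 9 miRNA families in the 3′ UTRs of the 10 genes are shown before the values. Mature sequences are from RefSeq (GRCm38.p6), with the seed, bases 2 to 8, in capitals. The 5 below have the matches in Lpl and Abca1.
mmu-miR-27b-3p: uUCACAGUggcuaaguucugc
mmu-miR-29a-3p: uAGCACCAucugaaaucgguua
mmu-miR-128-3p: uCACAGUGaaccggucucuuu
mmu-miR-33-5p: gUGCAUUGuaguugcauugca
mmu-miR-148a-3p: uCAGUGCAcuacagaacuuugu

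In the longest annotated 3′ UTR of each gene (GENCODE M21), Trem2, Tyrobp, Spp1 and Cd9 held no match to the seed of any of the 9 families (let-7, miR-9, miR-27, miR-29, miR-33, miR-128, miR-137, miR-138 and miR-148). These UTRs are short, 249, 173, 432 and 395 bases. Apoe, with 271 bases, held 1 match, to miR-137. The longer UTRs of Lpl (2428 bases), Abca1 (3156 bases) and Csf1 (2111 bases) each held matches to 4 families, including 8mers to miR-9, miR-27, miR-128 and miR-148 in Csf1, that of Axl (1389 bases) to 2 and that of Gpnmb (1868 bases) to 1. A longer UTR has more room for a match by its length alone.

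The matches of Lpl and Abca1 that extend to an A opposite miRNA base 1 (8mers) are printed with the match in capitals, since Lpl is the only gene of the 10 that both passed the test below and had an 8mer, and Abca1 had 3 matches to miR-33, a miRNA known for its control of cholesterol efflux.
Lpl, miR-27 match (GRCm38 chr8:68906346-68906353, plus strand): agctgggagcagaaACTGTGAAatttgtg
Lpl, miR-29 match (GRCm38 chr8:68906770-68906777, plus strand): gcagtatagatttgTGGTGCTAactttgt
Abca1, miR-33 match (GRCm38 chr4:53033801-53033808, minus strand): gtactgacactattCAATGCAAtgcactt
Abca1, miR-33 match (GRCm38 chr4:53033786-53033793, minus strand): aatgcaatgcacttCAATGCAAcgagaac
Abca1, miR-27 match (GRCm38 chr4:53031477-53031484, minus strand): tggaaaacttactaACTGTGAAtatgaga

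Among the longest 3′ UTRs of 21020 genes, 16.0% held the 7 letters of the miR-27 match (ACTGTGA), 13.1% those of miR-29 (TGGTGCT), 18.9% those of miR-128 (CACTGTG), 12.7% those of miR-148 (TGCACTG) and 7.12% those of miR-33 (CAATGCA). The miR-128 match of Lpl overlapped one to miR-148, and so did one in Abca1. In Csf1 the matches to miR-148, miR-128 and miR-27 that start at bases 788, 790 and 791 of the UTR overlapped. The miR-33 matches of Abca1 that start at bases 135 and 140 overlapped as well, so these are not separate stretches. A match is a description of the sequence, not a measured site, and the miRNAs were not measured here.

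Compared with controls, the KO libraries held more Trem2 and Tyrobp RNA in both tissues, more Lpl RNA in the neocortex, and more Apoe and Spp1 RNA in the CA1. Of the 10 genes, 3 rose in the neocortex (Trem2, Tyrobp and Lpl) and 4 rose in the CA1 (Trem2, Tyrobp, Apoe and Spp1), and 0 fell in either tissue (edgeR's quasi-likelihood test, adjusted p under 0.05 over all genes tested). The share of all tested genes that rose was 1.51% for neocortex and 2.47% for CA1. Falls were also few over all tested genes, 204 of 16971 in the neocortex and 258 of 18274 in the CA1. Every KO library lay above every control library for 6 of the 10 genes in the neocortex, where 11.6% of all genes did so, and for 8 of 10 in the CA1, where 17.4% of all genes did so. The fitted log2 fold change was above 0 for 10 of 10 genes in both tissues, beside 50.6% of all neocortex genes and 49.9% of all CA1 genes. Its median over the 10 genes was 0.25 in the neocortex and 0.32 in the CA1, beside medians over all genes tested of 0.0021 and -0.0004. The 10 genes were chosen with earlier results of these data known, so these comparisons with all genes are not an independent test of the set. Leaving out a library lowered the calls over all genes as well. In the neocortex 256 genes rose, and 16 of 17184 did without KO D5133. In the CA1 452 genes rose, and 149 did without KO D5133 and 177 without control D5138.

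**Figure D1:**
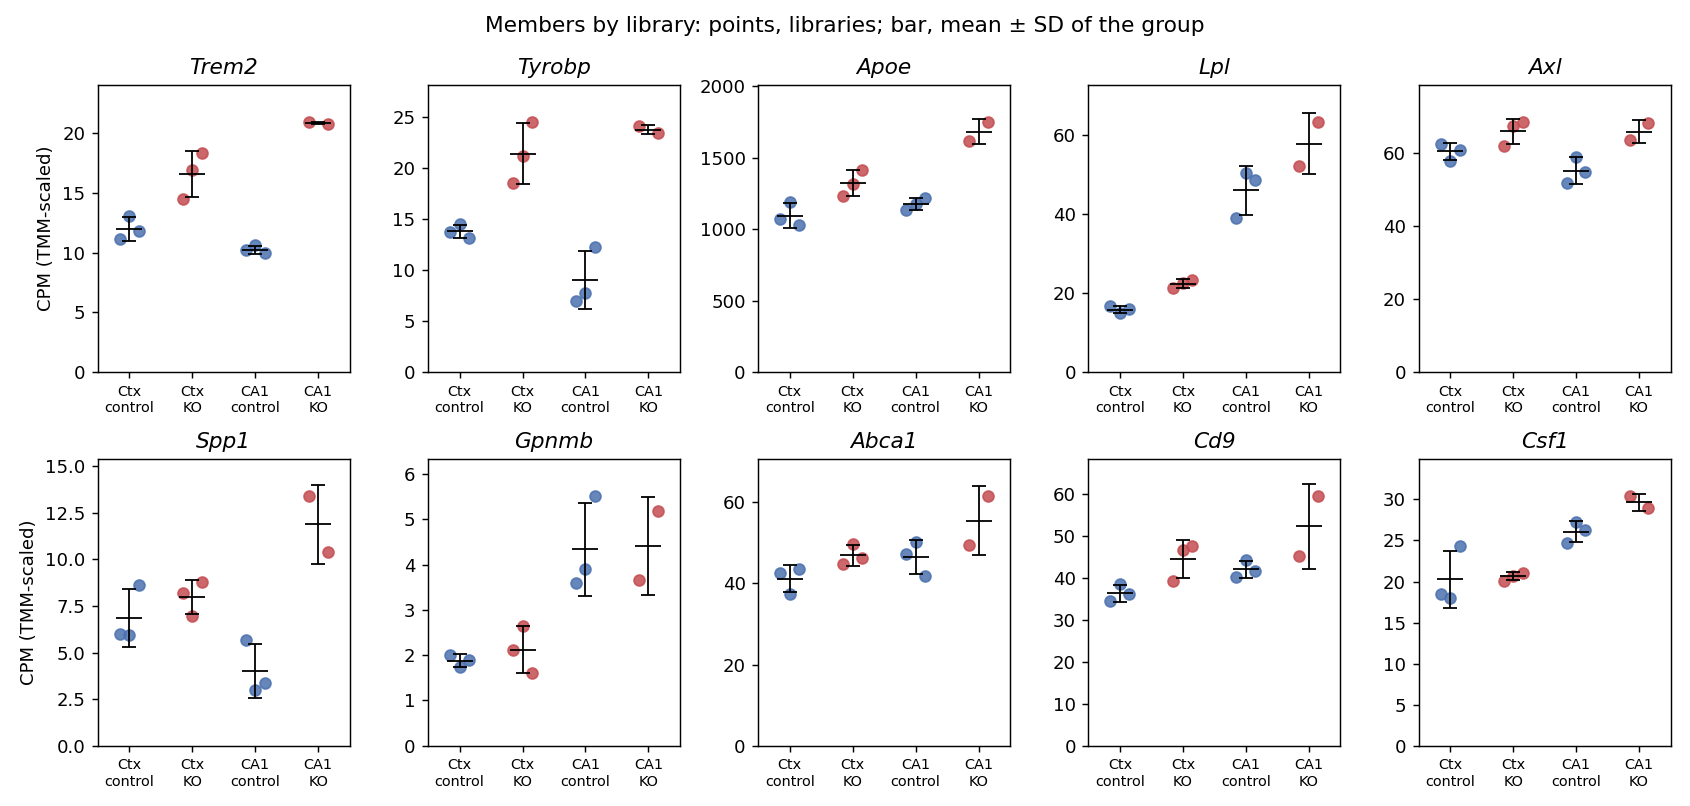
Level of each of the 10 genes in each library, in CPM (vertical axes, each starting at 0), for controls (blue) and KO (red) in the neocortex (Ctx) and the CA1. Points are libraries and bars are the group mean ± SD. Trem2, Tyrobp, Apoe, Lpl and Cd9 have no overlap between KO and control in either tissue, and the KO and control points of Gpnmb overlap in both tissues.

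Trem2 (ENSMUSG00000023992, GRCm38 chromosome 17, 48346401 to 48354147) is the receptor. Control neocortex held 11.1 (D5129), 13.1 (D5134) and 11.8 (D5135) CPM of its RNA, and KO neocortex held 14.5 (D5130), 16.9 (D5132) and 18.3 (D5133). Control CA1 held 10.2 (D5134), 10.6 (D5135) and 9.95 (D5138) CPM, and KO CA1 held 20.9 (D5130) and 20.8 (D5133). The groups did not overlap in either tissue, and both CA1 KO libraries lay far above the 3 controls. Trem2 rose by 0.46 log2 in the neocortex (± 0.105 SE, adjusted p = 0.039 in edgeR, fold 1.38) and by 1.02 log2 in the CA1 (± 0.106 SE, adjusted p = 0.000157 in edgeR, fold 2.03). The CA1 call held without each library in turn, at 1.00 to 1.05. The neocortex value was 0.38 to 0.55 without each library and passed the threshold only without D5130 and without D5134. It was 0.49 within set 1 of the spike-in RNAs, with a lone control, and 0.56 within set 2, with a lone KO library.

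Tyrobp (ENSMUSG00000030579, chromosome 7, 30413760 to 30417585), the adaptor that carries the signal, measured 13.7, 14.5 and 13.2 CPM in control neocortex and 18.6, 21.2 and 24.5 in KO neocortex. The CA1 values were 7.0, 7.79 and 12.3 CPM in controls and 24.1 and 23.5 in KO. The female control D5138 was the highest of the 3 CA1 controls and still lay well below either KO library. Tyrobp rose by 0.64 log2 in the neocortex (± 0.101 SE, adjusted p = 0.00875 in edgeR, fold 1.56) and by 1.39 log2 in the CA1 (± 0.209 SE, adjusted p = 0.011 in edgeR, fold 2.62). Without the female control the CA1 value was 1.68 (adjusted p = 0.000136 in edgeR). The call was lost without KO D5130 (1.37), without KO D5133 (1.40) and without control D5135 (1.29), with edgeR adjusted p of 0.0824, 0.0926 and 0.0576. In the neocortex it was lost only without KO D5133 (0.53, adjusted p = 0.0746 in edgeR), and the value was 0.54 within set 1 and 0.83 within set 2.

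The start site region of Trem2 is shown because it was the one gene called in both tissues with a promoter entry in the RefSeq table (GRCm38.p6). Bases 250 before to 50 after the start are given, plus strand, and the capitals mark the only match to the motifs searched, GAGGAA read on the minus strand, at -40 to -35 from the start.
Trem2 promoter (chr17:48346151-48346450): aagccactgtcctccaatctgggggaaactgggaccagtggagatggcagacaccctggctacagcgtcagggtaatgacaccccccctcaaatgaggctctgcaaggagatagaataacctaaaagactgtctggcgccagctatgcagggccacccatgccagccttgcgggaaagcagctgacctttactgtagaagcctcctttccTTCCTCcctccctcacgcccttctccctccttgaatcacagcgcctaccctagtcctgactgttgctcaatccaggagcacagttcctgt

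GAGGAA is the core bound by PU.1, the myeloid transcription factor encoded by Spi1. On either strand it was held by 28.3% of 32851 promoters of this length. Among the 8 genes with an entry it was also found in Apoe, Axl and Spp1. The other motifs searched on both strands were CACGTG, held by 7.15% of promoters and found in Abca1, CATGTG, held by 14.2% and found in Cd9, and TGACTCA, held by 5.2% and found in Gpnmb. A direct repeat of AGGTCA with 4 bases between, the element of the sterol-sensing factor LXR, was found in none of the 8 and in 0.0152% of promoters.

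Apoe (ENSMUSG00000002985, chromosome 7, 19696109 to 19699188), the main lipoprotein of the brain and a ligand of Trem2, measured 1069, 1191 and 1026 CPM in control neocortex and 1234, 1313 and 1416 in KO neocortex. Its CA1 levels were 1133, 1173 and 1217 CPM for control and 1619 and 1747 for KO. Every KO library was above every control in both tissues. Apoe rose by 0.52 log2 in the CA1 (± 0.0536 SE, adjusted p = 0.000157 in edgeR, fold 1.43), and the call held without each library in turn, at 0.46 to 0.57. In the neocortex its log2 fold change of 0.27 (± 0.0655 SE, adjusted p = 0.0508 in edgeR) did not pass, and it passed without control D5134 (0.33, adjusted p = 0.0181 in edgeR).

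Lpl (ENSMUSG00000015568, chromosome 8, 68880491 to 68907448), the lipase that releases fatty acids from lipoprotein triglyceride, measured 16.6, 14.8 and 16.0 CPM in control neocortex and 21.2, 22.6 and 23.3 in KO neocortex. Control CA1 had 38.9, 50.4 and 48.6 CPM and KO CA1 had 52.2 and 63.1. The neocortex groups lay well apart, while the lower CA1 KO library stood just above the highest control. Lpl rose by 0.50 log2 in the neocortex (± 0.08 SE, adjusted p = 0.00875 in edgeR, fold 1.41). That call was lost without KO D5133 alone (0.47, adjusted p = 0.0833 in edgeR), and the values within sets 1 and 2 were 0.40 and 0.60. In the CA1 the log2 fold change of 0.32 (± 0.115 SE, 95% interval 0.07 to 0.58, adjusted p = 0.17 in edgeR) did not pass.

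Abca1 (ENSMUSG00000015243, chromosome 4, 53030787 to 53159895) is the transporter that loads cellular cholesterol and phospholipid onto Apoe. Its RNA measured 42.5, 37.4 and 43.6 CPM in control neocortex and 44.7, 49.7 and 46.3 in KO neocortex. The CA1 values were 47.2, 50.3 and 41.9 CPM in controls and 49.4 and 61.5 in KO. The CA1 groups overlapped, the neocortex groups did not, and the gene passed in neither tissue, at 0.19 (± 0.0732 SE, adjusted p = 0.198 in edgeR) and 0.25 log2 (± 0.101 SE, adjusted p = 0.209 in edgeR).

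Spp1 (ENSMUSG00000029304, chromosome 5, 104435118 to 104441050) encodes osteopontin, a secreted protein that binds integrins and CD44. In CA1 it measured 5.67, 3.0 and 3.35 CPM for controls and 13.4 and 10.4 for KO. In neocortex it measured 5.98, 5.97 and 8.64 CPM for controls and 8.21, 6.98 and 8.79 for KO. The CA1 groups were far apart, and the neocortex groups overlapped because control D5135 was about as high as the KO libraries. Spp1 rose by 1.59 log2 in the CA1 (± 0.239 SE, adjusted p = 0.00596 in edgeR, fold 3.02), the largest fold change of the 10 genes in either tissue. The call was lost without KO D5130 (1.40, adjusted p = 0.053 in edgeR). The neocortex value was 0.22 (± 0.157 SE, 95% interval -0.12 to 0.56, adjusted p = 0.515 in edgeR).

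Axl (ENSMUSG00000002602, chromosome 7, 25757273 to 25788705) is a receptor tyrosine kinase that recognises phosphatidylserine on dying cells through Gas6. Its RNA measured 62.5, 57.8 and 60.8 CPM in control neocortex and 61.8, 67.4 and 68.3 in KO neocortex. Its CA1 levels were 51.7, 58.9 and 54.8 CPM for control and 63.5 and 68.0 for KO. The neocortex groups overlapped through KO D5130, and the CA1 groups did not overlap. Its log2 fold change was 0.13 in the neocortex (± 0.0614 SE, adjusted p = 0.311 in edgeR) and 0.25 in the CA1 (± 0.075 SE, adjusted p = 0.0796 in edgeR), without passing in either.

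Cd9 (ENSMUSG00000030342, chromosome 6, 125460266 to 125494791), a tetraspanin that organises membrane receptors, measured 34.4, 38.5 and 36.0 CPM in control neocortex and 39.2, 46.6 and 47.6 in KO neocortex. Control CA1 had 40.2, 44.2 and 41.6 CPM and KO CA1 had 45.1 and 59.4. All KO libraries were above all controls in both tissues, with D5130 the lowest KO library in each. The log2 fold change of 0.29 in the neocortex (± 0.081 SE, adjusted p = 0.0784 in edgeR) and of 0.31 in the CA1 (± 0.103 SE, adjusted p = 0.126 in edgeR) did not pass. Without D5130 both passed, at 0.38 (adjusted p = 0.0439 in edgeR) and 0.50 (adjusted p = 0.0182 in edgeR).

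Csf1 (ENSMUSG00000014599, chromosome 3, 107741048 to 107760469) is a ligand of Csf1r, the receptor that microglia need to survive. Its RNA measured 18.5, 18.0 and 24.3 CPM in control neocortex and 20.1, 20.7 and 21.1 in KO neocortex. The CA1 values were 24.7, 27.2 and 26.3 CPM in controls and 30.4 and 28.9 in KO. The neocortex KO libraries lay inside the range of the controls, and the log2 fold change was 0.03 (95% interval -0.21 to 0.26, adjusted p = 0.941 in edgeR), with the sign turned without control D5129 (-0.04) or D5134 (-0.05). The CA1 groups did not overlap, and the log2 fold change of 0.19 (95% interval 0.0 to 0.37, adjusted p = 0.289 in edgeR) did not pass.

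Gpnmb (ENSMUSG00000029816, chromosome 6, 49036546 to 49070929), a membrane glycoprotein of lysosomes that phagocytes raise when loaded with lipid, had 74 to 194 counts per library. Its RNA measured 2.01, 1.73 and 1.90 CPM in control neocortex and 2.12, 2.64 and 1.61 in KO neocortex. Its CA1 levels were 3.59, 3.91 and 5.51 CPM for control and 3.65 and 5.18 for KO. The groups overlapped in both tissues. The log2 fold change was 0.17 in the neocortex (95% interval -0.28 to 0.62, adjusted p = 0.744 in edgeR) and 0.01 in the CA1 (95% interval -0.47 to 0.48, adjusted p = 0.994 in edgeR). The sign turned in the neocortex without KO D5132 (-0.02) and in the CA1 without control D5134 (-0.11), control D5135 (-0.07) or KO D5133 (-0.26).

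**Figure D2:**
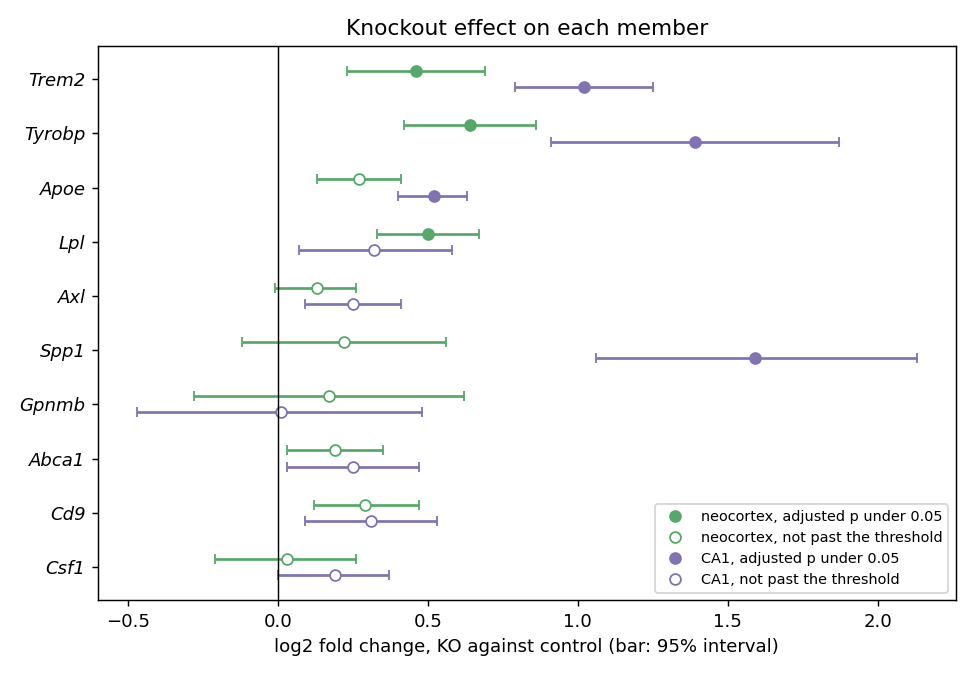
Log2 fold change of KO against control (horizontal axis) for each of the 10 genes, in the neocortex (green) and the CA1 (purple), with 95% intervals from the edgeR fit as bars. Filled points passed the test and open points did not. Spp1, Tyrobp and Trem2 lie above 1 in the CA1 at 1.59, 1.39 and 1.02, and no point lies below 0.

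Per kilobase of the longest coding transcript, Apoe was by far the most abundant of the 10 RNAs, at 778 ± 61.0 CPM per kilobase in the neocortex controls (SD, n = 3), followed by Cd9 at 29.5 ± 1.67, Tyrobp at 23.1 ± 1.10, Axl at 14.1 ± 0.557 and Trem2 at 11.1 ± 0.931. No pair of neighbours among these 5 overlapped in range. Csf1 at 4.86 ± 0.846, Spp1 at 4.55 ± 1.02, Abca1 at 4.01 ± 0.324 and Lpl at 3.84 ± 0.230 overlapped each with the next, and Gpnmb was lowest at 0.508 ± 0.0379. In the CA1 controls the order began with Apoe (834 ± 29.8), Cd9 (34.2 ± 1.64) and Tyrobp (15.1 ± 4.79), and Tyrobp, Axl, Lpl and Trem2 overlapped each with the next. Lpl came next after Axl there at 11.2 ± 1.5, above Trem2 at 9.44 ± 0.323. The order depends on the length used. Over all annotated exons, which in Trem2 sum to 4946 bases against 1088 for the transcript, Trem2 ranked 8 of 10 in the neocortex and 9 of 10 in the CA1, in place of 5 and 6.

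The difference between the 2 tissues' KO effects was tested in a single fit of the 11 libraries. Of the 10 genes, 0 passed (edgeR adjusted p under 0.05), where 0.0935% of all genes did. An unadjusted edgeR p under 0.05 was found for 4 (Trem2, Tyrobp, Apoe and Spp1, all with the larger KO effect in the CA1). Of all 19256 genes, 1831 had such a p. DESeq2 called 1, Spp1. The difference on the log2 scale was 1.37 for Spp1 (± 0.317 SE, adjusted p = 0.167 in edgeR), 0.75 for Tyrobp (± 0.245 SE, adjusted p = 0.332 in edgeR), 0.56 for Trem2 (± 0.149 SE, adjusted p = 0.196 in edgeR) and 0.25 for Apoe (± 0.0927 SE, adjusted p = 0.375 in edgeR). Lpl had the opposite sign at -0.17 (95% interval -0.48 to 0.13, adjusted p = 0.754 in edgeR), so that its call in the neocortex alone does not show a difference between the tissues. With animal as a replicate block, which uses the 4 animals that gave both tissues, Tyrobp passed at 1.05 (adjusted p = 0.0124 in edgeR) and the other 9 did not.

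Other genes of the same pathways were taken from 10 lists that hold 134 genes, none of them among the 10 above. The lists too were chosen with earlier results of these data known, so their counts beside all genes are a description, not an independent test. In the neocortex 7 of 121 tested rose and 0 fell, with a median log2 fold change of 0.07. Of all neocortex genes 1.51% rose, with a median of 0.0021. In the CA1 23 of 117 rose and 0 fell, with a median of 0.18, beside 2.47% of all CA1 genes and a median of -0.0004. Over all genes, 204 of 16971 fell in the neocortex and 258 of 18274 in the CA1. The same shares over all genes apply to the counts of each list below. Leaving out single libraries lowered these counts, as it did those over all genes given above. The neocortex count was 0 to 6 without each library in turn, with 0 without KO D5133, 2 without D5132, 3 without D5129, 4 without D5130 or D5135, and it was 2 with a term for the spike-in sets. The CA1 count was 5 without KO D5133, 6 without the female control D5138, 12 without control D5135 and 14 without KO D5130.

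**Figure D3:**
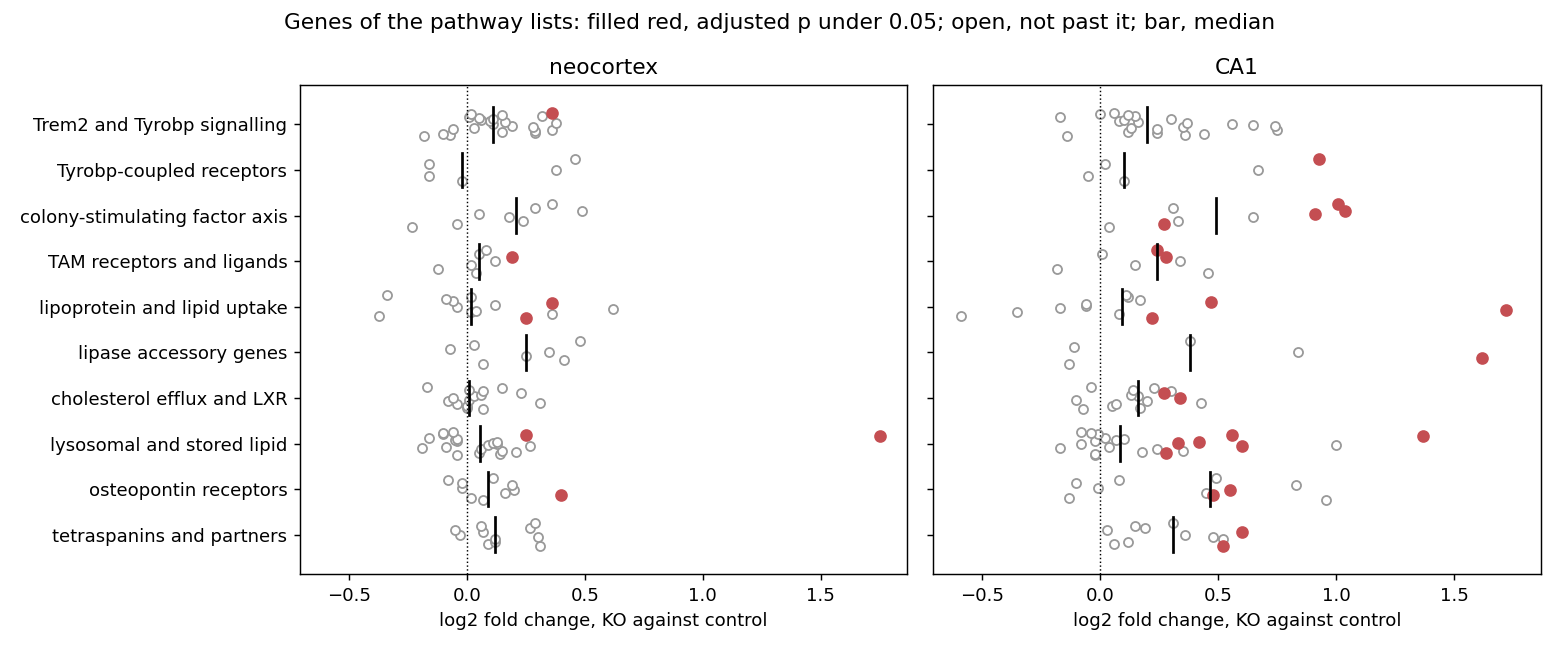
Log2 fold change of KO against control (horizontal axis) for every tested gene of the 10 pathway lists (rows), in the neocortex (left) and the CA1 (right). Filled red points passed the test, open points did not, and the bar is the list's median, which runs from -0.02 to 0.25 in the neocortex and from 0.09 to 0.49 in the CA1.

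Of the genes of Trem2 and Tyrobp signalling (Syk, phospholipase C, Vav, phosphatase, sheddase and partner receptor genes among them), 1 of 23 rose in the neocortex and 0 of 22 in the CA1. The riser was Plxna1, a semaphorin receptor that can form a complex with Trem2, at 0.36 (± 0.0562 SE, adjusted p = 0.00784 in edgeR), and it was at 0.06 in the CA1 (adjusted p = 0.712 in edgeR). Inpp5d, the lipid phosphatase SHIP1 that restrains Tyrobp signalling, was at 0.11 and 0.65 log2 in the neocortex and the CA1 (edgeR adjusted p of 0.725 and 0.079), and Adam10, a sheddase of Trem2, at 0.32 and 0.15 (edgeR adjusted p of 0.093 and 0.459). Among other receptors that couple to Tyrobp, 0 of 5 rose in the neocortex and 1 of 5 in the CA1, the integrin chain Itgb2, at 0.93 (± 0.162 SE, adjusted p = 0.00596 in edgeR).

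The colony-stimulating factor genes had 0 of 8 called in the neocortex and 4 of 8 risen in the CA1. Csf3r, the receptor for the granulocyte factor, rose there by 1.04 (± 0.175 SE, adjusted p = 0.00489 in edgeR). The related receptor chain Csf2rb2 rose by 0.91 (± 0.16 SE, adjusted p = 0.00598 in edgeR). Csf2ra and Csf2rb, the receptor chains for the granulocyte-macrophage factor, did not pass in the CA1, at 0.33 and 0.65 (edgeR adjusted p of 0.105 and 0.134). The myeloid transcription factor Irf8 rose by 1.01 (± 0.223 SE, adjusted p = 0.0216 in edgeR), and Csf1r by 0.27 (± 0.0662 SE, adjusted p = 0.039 in edgeR). Il34, the neuronal ligand of Csf1r, was at -0.23 in the neocortex and 0.04 in the CA1 (edgeR adjusted p of 0.11 and 0.88). Csf2rb2 is a close copy of Csf2rb, and counting may have split reads between them.

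Among the receptors of lipoprotein and other lipid, 2 of 13 rose in the neocortex and 3 of 12 in the CA1. Lrp1, a large endocytic receptor for Apoe, rose in both, by 0.25 (± 0.0526 SE, adjusted p = 0.0276 in edgeR) and 0.22 (± 0.0493 SE, adjusted p = 0.0246 in edgeR). Sorl1, a sorting receptor for lipoprotein and amyloid precursor, rose in the neocortex by 0.36 (± 0.0764 SE, adjusted p = 0.0365 in edgeR). The scavenger receptors Stab1 and Cd36 rose in the CA1 by 0.47 (± 0.119 SE, adjusted p = 0.0454 in edgeR) and 1.72 (± 0.444 SE, adjusted p = 0.0468 in edgeR), Cd36 from a mean of only 0.361 CPM in the controls.

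Of the genes that act with Lpl, 0 of 7 were called in the neocortex and 1 of 5 rose in the CA1, the small apolipoprotein Apoc1, at 1.62 (± 0.403 SE, adjusted p = 0.0383 in edgeR), again from a low control mean of 0.338 CPM. Of the cholesterol efflux and LXR genes that go with Abca1, 0 of 15 were called in the neocortex and 2 of 15 rose in the CA1. They were Clu, the astrocyte lipoprotein clusterin, at 0.27 (± 0.0486 SE, adjusted p = 0.007 in edgeR), and the phospholipid transfer protein Pltp, at 0.34 (± 0.0768 SE, adjusted p = 0.0245 in edgeR). Abca7 was at 0.0 and 0.17 log2 (edgeR adjusted p of 0.997 and 0.289).

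Lysosomal and lipid storage genes had 2 of 22 risen in the neocortex and 6 of 22 in the CA1. The protease Ctsd and the glycan-binding lectin Lgals3 rose in both tissues, Ctsd by 0.25 (± 0.0568 SE, adjusted p = 0.0395 in edgeR) and 0.56 (± 0.0565 SE, adjusted p = 0.000139 in edgeR). Lgals3 rose by 1.75 (± 0.349 SE, adjusted p = 0.0237 in edgeR) and 1.37 (± 0.326 SE, adjusted p = 0.0317 in edgeR), from control means of 0.217 and 0.821 CPM. In the CA1 the lysosomal enzyme chain Hexa rose by 0.33, the cholesterol carrier Npc2 by 0.28 and the fatty acid carrier Fabp7, a gene of astrocytes, by 0.60 (edgeR adjusted p of 0.0311, 0.0364 and 0.0128).

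Receptors of osteopontin had 1 of 10 risen in the neocortex and 2 of 10 in the CA1. The integrin chain Itgb1 rose in both, by 0.40 (± 0.0697 SE, adjusted p = 0.0129 in edgeR) and 0.48 (± 0.0883 SE, adjusted p = 0.00839 in edgeR), and Itgb5 rose in the CA1 by 0.55 (± 0.0786 SE, adjusted p = 0.00168 in edgeR). Cd44 was at 0.07 and 0.96 log2 (edgeR adjusted p of 0.893 and 0.0631). Among the tetraspanins and their partners that go with Cd9, 0 of 11 were called in the neocortex and 2 of 11 rose in the CA1, Cd63 at 0.52 (± 0.112 SE, adjusted p = 0.0216 in edgeR) and Tspan4 at 0.60 (± 0.138 SE, adjusted p = 0.0271 in edgeR).

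The list built around Axl had 1 of 7 risen in the neocortex and 2 of 7 in the CA1, and neither riser is a receptor or ligand of the Axl family. Ptprs, a receptor phosphatase of axons and synapses, rose by 0.19 (± 0.0465 SE, adjusted p = 0.0455 in edgeR) and 0.28 (± 0.0516 SE, adjusted p = 0.0077 in edgeR), and Mfge8, which bridges phosphatidylserine to integrins, rose in the CA1 by 0.24 (± 0.0586 SE, adjusted p = 0.0386 in edgeR). The related kinases Mertk and Tyro3 were at 0.04 and -0.12 log2 in the neocortex and at 0.46 and -0.18 in the CA1, and the ligands Gas6 and Pros1 at 0.02 and 0.12 and at 0.15 and 0.34, none of them past the threshold.

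Markers of the cells that make these RNAs were read in the same libraries. Of 15 microglial markers, 2 rose in the neocortex (C1qb and C1qc) and 6 rose in the CA1 (C1qa, C1qb, C1qc, Fcrls and Olfml3 among them), with 0 at a count of 0 in any library. Their summed level was 513 to 542 CPM in the neocortex controls against 542 to 601 in the KO libraries, and 365 to 386 against 488 to 560.3 in the CA1. The other microglial markers did not pass, and some had values below 0. P2ry12 was at -0.35 log2 in the neocortex and -0.23 in the CA1 (edgeR adjusted p of 0.0909 and 0.398), Tmem119 at -0.16 and 0.05 (edgeR adjusted p of 0.345 and 0.866) and Cx3cr1 at -0.06 and 0.19 (edgeR adjusted p of 0.77 and 0.504). Of the markers named as risen in the CA1, C1qa was at 0.27 in the neocortex and 0.94 in the CA1. C1qb was at 0.49 and 1.05, C1qc at 0.33 and 1.04, Fcrls at 0.35 and 0.72, and Olfml3 at 0.29 and 0.60. The median over the 15 was 0.11 in the neocortex and 0.22 in the CA1. Trem2 was at 0.46 and 1.02, above these medians and near C1qb, the highest of the 15 markers in both tissues. Tyrobp was at 0.64 and 1.39, above all 15. Whether Trem2 or Tyrobp rose beyond the microglial content was not tested.

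Markers of border macrophages, which line the meninges and vessels and also make Trem2, Tyrobp, Apoe and Spp1, moved with the CA1 groups. Of 7 markers, 6 were tested there and 3 rose, Cd163 by 1.40, Mrc1 by 1.22 and F13a1 by 1.16 (edgeR adjusted p of 0.0107, 0.0132 and 0.0215). Their summed level was 4.88 to 7.79 CPM in the CA1 controls and 15.4 to 15.7 CPM in the KO libraries. In the neocortex 0 of 7 were called and the ranges overlapped, at 8.83 to 11.2 and 8.84 to 15.4 CPM. The count of 3 became 0 without KO D5133 and 1 without KO D5130. Fibroblast markers likewise summed to 85.7 to 88.6 CPM in the CA1 controls and 200 to 213 CPM in the KO libraries, with 2 of 6 risen (Igf2 and Col1a2), against overlapping ranges of 70.6 to 132 and 95.5 to 126 CPM in the neocortex. The part of these cells in the CA1 values of Trem2, Tyrobp, Apoe and Spp1 was not tested.

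Markers of monocytes and neutrophils summed to at most 2.03 CPM and those of lymphocytes to at most 0.468 CPM in any library, with up to 2 of 6 and up to 4 of 5 of them at a count of 0. The CA1 also held less RNA of 6 of 6 oligodendrocyte markers, which summed to 2671 to 3319 CPM in the controls and 2172 to 2271 CPM in the KO libraries. Astrocyte markers, which bear on Apoe, Abca1 and Clu, summed to 1355 to 1378 against 1479.8 to 1573 CPM in the CA1, where 1 of 7 rose (Aqp4), and to 1288 to 1434 against 1431 to 1554 CPM in the neocortex, where 0 of 7 were called. Excitatory neuron markers, the cells in which Cre acts, summed to 5529 to 5581 CPM in neocortex controls against 4796 to 4891 in KO, and to 5087 to 5691 against 4490.1 to 4928 in the CA1, with 2 of 6 fallen in each tissue. Over all genes, 204 of 16971 fell in the neocortex and 258 of 18274 in the CA1. Whether the shifts in tissue makeup account for any of the values was not tested.

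**Figure D4:**
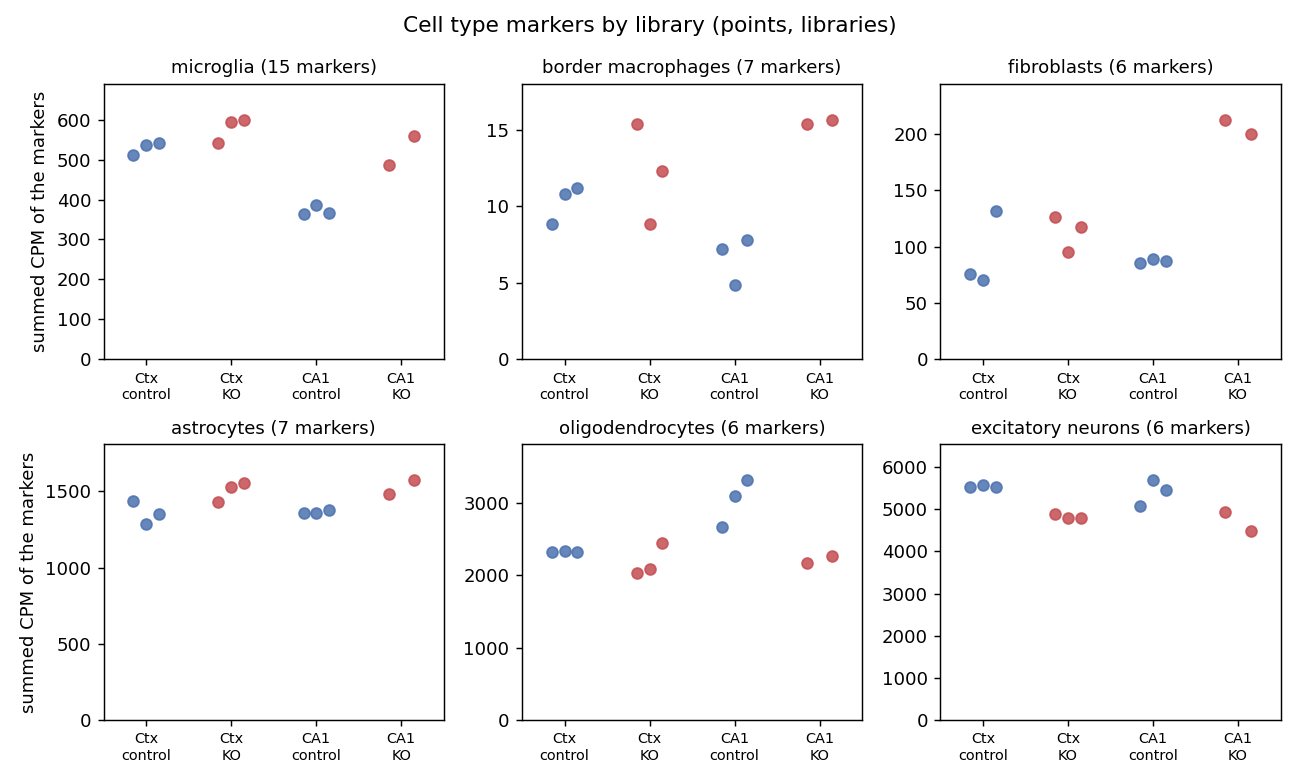
Summed CPM of the markers of 6 cell types in each library (points, vertical axes starting at 0) for controls (blue) and KO (red) in the neocortex (Ctx) and the CA1. In the CA1 the KO points of microglia, border macrophages, fibroblasts and astrocytes lie above all controls. Those of oligodendrocytes and excitatory neurons lie below.

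After each library was set against the mean of its tissue, Trem2 varied most like Cnn3 and Plppr3 and the complement chain C1qb (Pearson r of log2 CPM plus 1 of 0.99 for each), Tyrobp like Steap3 (0.97), Fxyd1 (0.96) and Dock2 (0.95), and Apoe like C1qb (0.98), Ctsd (0.97) and Cbx6 (0.97). Lpl varied most like Ska2 (0.98), Nras (0.98) and Pcdhgc4 (0.97), and Spp1 like Smo (0.98), Nnat (0.96) and Slc13a3 (0.95). The closest genes were Mpeg1 for Axl (0.96), Cspp1 and Bcl2 for Abca1 (0.97 each), Vps4b for Cd9 (0.94), Prdm8 for Csf1 (0.96) and Tra2b for Gpnmb (0.93). They were the highest of 10826 genes over 11 libraries that share animals and the KO contrast, and they are descriptions. Between members the same measure was 0.97 for Trem2 with Apoe and 0.93 for Trem2 with Tyrobp. With the genotype means also removed it was 0.73 for Trem2 with Apoe and 0.26 for Trem2 with Tyrobp. Over all pairs of members it then ran from -0.69 for Lpl with Spp1 to 0.88 for Lpl with Axl. The genes closest to Trem2 were then Nat10 (0.93), Cnn3 and Tbc1d22b (0.92 each). Those closest to Apoe were Secisbp2 (0.98), Gfm1 and Cd81 (0.95 each), so C1qb was no longer among the closest for either.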

How the data were processed

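Per the labels' protocols, total RNA (TRIzol) was made into libraries with a stranded mRNA kit and ERCC spike-in RNAs for the neocortex and with an unstranded mRNA kit for the CA1. What the authors deposited is a table of unnormalized integer counts for each Ensembl gene. The submitters' processing notes name GRCm38 and the tools GSNAP, SAMtools, bedtools and FastQC. Tool versions, annotation, counting rule and strand setting are not given in the sources used here. No other gene row overlapped a member's span in the annotation.

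Symbols and positions came from GENCODE M21 for 37693 of 39017 gene rows, and rows without a symbol took up to 0.469% of reads. The 92 ERCC rows (0.113% to 0.686% of neocortex reads) were kept out of library sizes and tests. KO was compared with control within each tissue in edgeR 4.0.16 (R 4.3.3) with TMM scaling, filterByExpr and a robust quasi-likelihood F-test, two-sided, with Benjamini-Hochberg adjustment over 16971 genes in the neocortex, 18274 in the CA1 and 19256 for the difference between tissues, at a threshold of 0.05. The standard error was the absolute log2 fold change over the square root of F, and intervals used the fit's degrees of freedom. CPM per kilobase used the longest coding transcript and, as a second length, all annotated exons. The procedure was tested on simulated data with known changes. The p-values measure the spread between animals as far as the labels give it, with 2 to 3 libraries a group.

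The labels give the same animal for both tissues of 4 animals. Deviations from the group means correlated across genes with r of 0.16, 0.159, 0.206 and 0.245 between the tissues of an animal, while unlike animals sharing a genotype gave -0.277 to 0.0744, so animal was also fitted as a block. Chi-square values per gene of 9.99 to 22.1 between libraries of a group showed no library to be a copy of another. The spike-in sets came from the relative amounts of 35 ERCC RNAs, with r of at least 0.869 within a set and at most -0.898 between sets. The fits within a set were added after seeing the data, and each assumes that its lone library varies like the others.

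The members and lists were chosen with earlier results of these data known. All 10 members are named. From each pathway list up to 5 genes with the smallest p in either tissue are named, with list genes beside them for contrast picked after their values were seen. The genes varying most like a member are those with the highest r among genes averaging 5 CPM or more, leaving out predicted and sex-linked genes. Alternatives were DESeq2 1.42.0, upper-quartile scaling, no low-count filter, ERCC scaling, an ERCC set term, a single fit of 11 libraries, an animal block and leaving out each library. One gene of the lists is counted but not reported by name here.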

Additional observations from a re-analysis of the deposited data

Results flagged for a closer look

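The KO effect differed between the tissues, by the test of the difference itself, for 2 complement chains of the microglial marker list and for none of the 10 members. C1qa was at 48.1 ± 4.03 CPM in the neocortex controls and 57.8 ± 5.95 CPM in the KO libraries (SD, n = 3 each), and at 31.9 ± 1.35 (n = 3) and 61.5 ± 4.49 CPM (n = 2) in the CA1. Its KO effect in the CA1 exceeded that in the neocortex by 0.68 log2 (SE 0.121, edgeR adjusted p = 0.0371). C1qc was at 48.7 ± 3.75 and 61.2 ± 2.77 CPM in the neocortex and at 27.8 ± 1.03 and 57.3 ± 2.97 CPM in the CA1, a difference in KO effect of 0.71 log2 (SE 0.103, edgeR adjusted p = 0.0246). Both calls held with DESeq2, upper-quartile scaling, no low-count filter and animal as a block. Without each of the 11 libraries in turn, C1qa was at 0.58 to 0.73 and passed in 1 of 11 fits, the one without neocortex control D5135 (edgeR adjusted p of 0.0374 to 0.183). C1qc was at 0.64 to 0.75 and passed in 4 of 11 fits, those without control D5134 or D5135 of either tissue (edgeR adjusted p of 0.00926 to 0.0888).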

How the results depend on the processing

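In the neocortex the count of members called was 3 in the main test and with upper-quartile scaling, a spike-in set term or a single fit of 11 libraries, the last with Apoe in place of Tyrobp. It was 5 by DESeq2 and 5 with no low-count filter (both adding Apoe and Cd9). Within a spike-in set, control or KO has a lone library, so only effect sizes are given for those fits. Over all genes, 481 of 12932 rose by DESeq2, 396 of 24186 with no filter and 122 of 16971 with the set term. Without each library in turn the count of members was 0 to 4, with 0 without KO D5133, where 16 of 17184 genes rose in all against 256 of 16971 in the main test. With library sizes set by the ERCC counts it was 0, while the median of all genes moved to 1.06 log2 and Trem2, Tyrobp and Lpl to 1.51, 1.72 and 1.61 (edgeR adjusted p = 0.3 for each). In the CA1 the count was 4 in all settings but no low-count filter, where it was 8, and without each library, where it was 3 to 4. For the difference between tissues it was 0 in the main test, 1 by DESeq2 (Spp1), 0 to 1 without each library (Spp1 without CA1 control D5134) and 1 with animal as a replicate block (Tyrobp, 1.05). The block, which pairs the tissues of an animal, changed no other member's call. Over all genes, 858 of 26149 rose in the CA1 with no filter, against 452 of 18274 in the main test. The difference between tissues passed above 0 for 11 genes and below 0 for 7 of 19256 in the main test. By DESeq2 it passed for 66 and 91 of 15634, and with the block for 36 and 78 of 19256. The cause of these moves was not tested. Signs turned for Gpnmb, at -0.17 within set 2 and -0.02 to 0.34 without each library in the neocortex and at -0.26 to 0.25 in the CA1, and for Csf1, at -0.05 to 0.18 in the neocortex. The pathway genes called were 14 by DESeq2 and 13 with no filter in the neocortex, against 7, and 25 and 32 in the CA1, against 23. Leaving out 1 of the 2 CA1 KO libraries leaves a lone KO library that is assumed to vary like the controls. With 2 to 3 libraries a group, changes smaller than the intervals given were not detectable.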
